A study of Mus musculus with 12 samples.

Results

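The 9 genes described here, Atf4, Atf5, Ddit3, Trib3, Chac1, Asns, Ddit4, Sesn2 and Ppp1r15a, belong to the integrated stress response, the pathway that runs through the transcription factor ATF4. They were taken by name from a table of read counts over 37991 mouse genes, and each of the 9 names matched 1 Ensembl gene. RNA-seq was carried out on splenic B cells of mice aged 8 weeks, with 3 biological replicates in each of 4 groups and 12 libraries in all. Control mice carried the CD23-iCre transgene alone (Cre-only), and Runx1 conditional knockout mice (CD23iCre/Runx1 ck/o, called Runx1 c-k/o) carried the same transgene together with Runx1 alleles whose exon 4 is flanked by LoxP sites. Because Cre is driven by CD23, deletion is limited to B cells from the transitional stage onward, and earlier B cell stages keep the gene. Cells of both genotypes were used resting (0 h) or after 3 h with anti-IgM, which engages the B cell receptor, and the cytokine IL-4. No library of cells kept for 3 h without the stimuli is among the 12, so that the stimuli and 3 h of culture cannot be told apart. The comparisons ask how these genes respond to activation and whether loss of RUNX1 alters their level at rest, their level at 3 h, or the response itself.

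The integrated stress response begins with kinases that phosphorylate eIF2 alpha when amino acids are scarce, when unfolded proteins gather in the endoplasmic reticulum (ER), or when heme or double-stranded RNA signals trouble. Phosphorylated eIF2 slows general translation but lets the Atf4 mRNA be read, so ATF4 protein is set largely at translation and its mRNA level shows only a part of its control. ATF4 then switches on genes for amino acid uptake and synthesis, tRNA charging and redox balance, together with genes that feed back on the pathway or, when stress persists, favor cell death. In lymphocytes ATF4 target genes are known for supplying amino acids during growth after activation.

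Read counts per library ranged from 14442251 to 23641552, and 3 counts, the smallest level taken as measurable, correspond to 0.127 to 0.208 CPM (read counts scaled to library size) in these libraries, a floor that covers counting error only. Levels are given as CPM after TMM normalization, so a rise or fall is relative to the other RNA of a library and is not an amount per cell. All 9 members passed the filter on low counts and were tested among 13538 genes. As a check of the cell type, 8 B cell markers, among them Cd79a, Ms4a1 and Pax5, summed to between 12202 and 21839.5 CPM in every library. The 8 T cell markers summed to 31.2 to 85.7 CPM and 5 NK cell markers to 0.653 to 5.97 CPM, whereas 10 myeloid and dendritic cell markers summed to 242 to 442 CPM at rest and 24.4 to 56.2 CPM at 3 h. None of the marker genes on these lists was at or under 3 counts in every library. Runx1 gene counts were not lower in the knockout (at rest 84.0 ± 2.47 CPM in Cre-only and 99.9 ± 3.74 CPM in Runx1 c-k/o libraries, SD, n = 3). At 3 h they were 36.8 ± 1.82 CPM in Cre-only and 64.1 ± 14.7 CPM in Runx1 c-k/o libraries. Since the counts cover the whole gene and do not separate exon 4, they do not check the deletion.

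In each Runx1 c-k/o group 1 library stood apart from the other 2. Counts of replicate pairs differed by a chi-square of 3.06 to 5.99 per degree of freedom within the Cre-only groups, but by as much as 37.6 among resting Runx1 c-k/o libraries in pairs with replicate 2 and up to 85.1 in 3-h Runx1 c-k/o cells in pairs with replicate 1. For genes that rose strongly on activation, the resting replicate 2 lay partway toward the 3-h state. Over the 227 genes that rose at least 8-fold in Cre-only cells, its level lay a median of 12.8% of the way from the other 2 resting libraries to the 3-h Runx1 c-k/o mean (quartiles 10.6% and 15.9%). Genes that fell on activation were not placed in this way as a set. Among the members this distance was 13.6% for Chac1, 13.9% for Trib3, 14.8% for Asns, 15.5% for Ddit3, 15.7% for Sesn2 and 20.2% for Atf4, with 10.6% for Atf5, 49.3% for Ddit4 and 2.41% for Ppp1r15a. At 3 h, replicate 1 was the highest of the 3 Runx1 c-k/o libraries for all 9 members, by 1.10-fold (Ddit4) to 1.60-fold (Atf5) over the mean of the other 2. That library was the highest of the 3 for 41.0% of all tested genes. Results for the members that rest on either library are therefore also given without it, or as a range with single libraries left out.

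**Figure D1:**
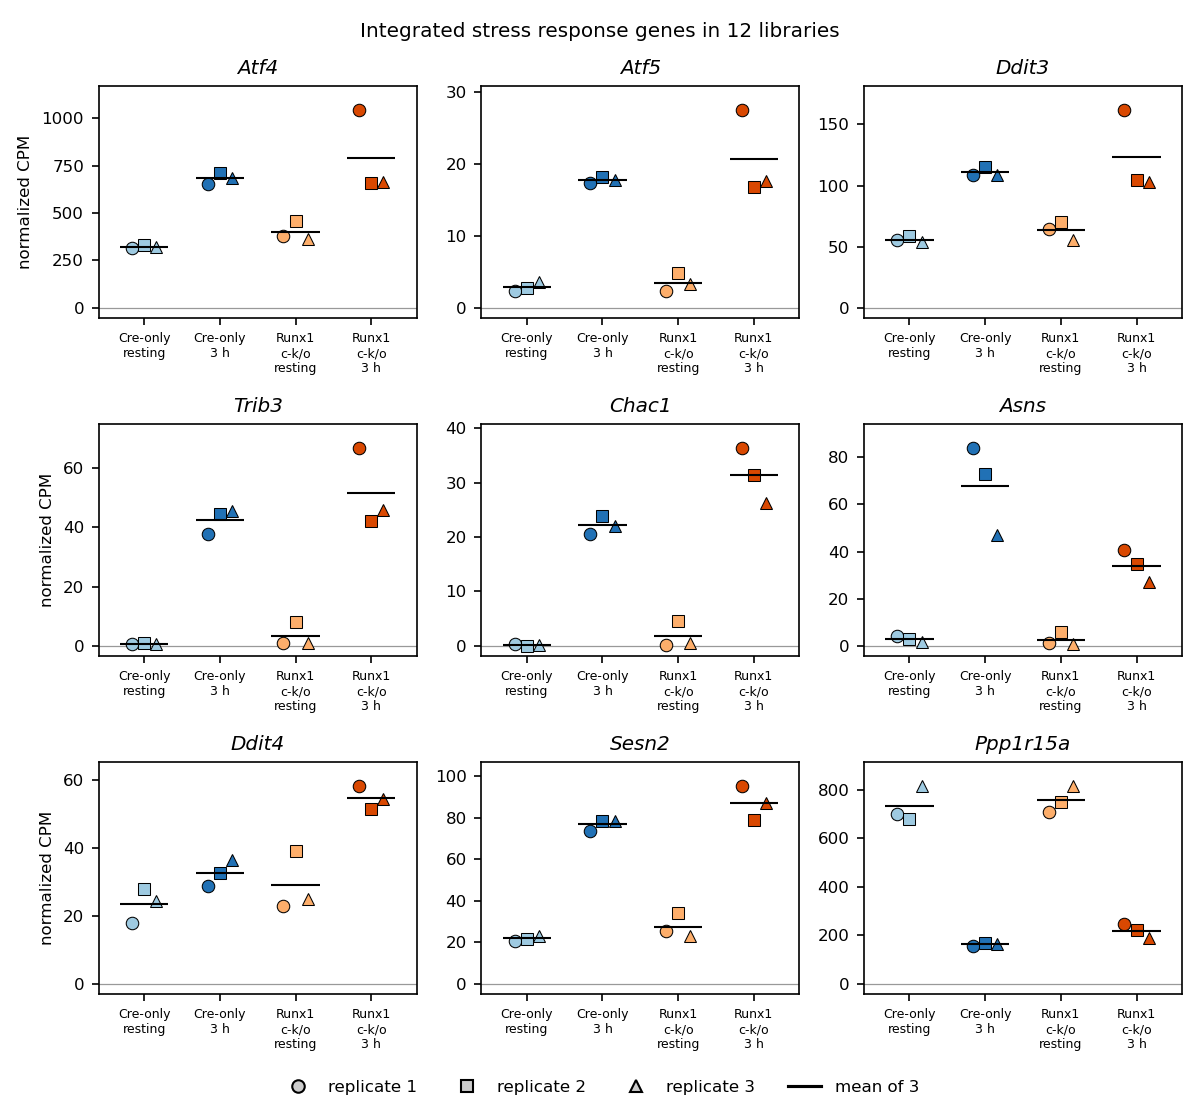
Level of each of the 9 genes in every library, as TMM-normalized CPM on a linear axis with its own scale for each gene. Symbols mark replicate numbers 1 to 3, colors mark the 4 groups and the line is the mean of 3 libraries. In both genotypes 8 genes lay higher at 3 h than at rest, Ppp1r15a lay lower, and resting Runx1 c-k/o replicate 2 sat above its group for Trib3 (8.01 CPM), Chac1 (4.59 CPM) and Asns (5.88 CPM).

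In Cre-only cells 8 of the 9 members rose and 1, Ppp1r15a, fell within 3 h (edgeR quasi-likelihood test, adjusted p under 0.05 over all tested genes). Activation at this time point changed most of the transcriptome, as 75.1% of the 13538 tested genes were called, 38.6% higher and 36.4% lower, so the count of members called has to be read against that share, and the sizes of the changes are given for each gene. The 3-h libraries lay without overlap above the resting ones for those 8 and below them for Ppp1r15a, as they did for 43.8% and 40.6% of all tested genes. DESeq2's Wald test called 8 of the 9 members and 74.5% of all genes, DESeq2 with 1 factor of unwanted variation (RUVs, estimated from differences between replicates) called 7 members and 59.6% of all genes, and 6 of the 7 members with at least 10 counts in every sample were called when only such genes (76.0% of them called) were tested. The RUVs factor was 0.141 to 0.740 in the resting libraries and -1.42 to -0.273 in the 3-h libraries. It thus follows time in part, and factor and activation cannot be fully told apart in fits that hold both. The median log2 change was 1.81 over the members and 0.027 over all tested genes. TMM places the bulk of genes near no change, so the value over all genes is set in part by the normalization. Chac1 ranked 6, Trib3 13 and Asns 43 from the top of all 13538 changes, and Atf5 ranked 396. Summed markers of myeloid and dendritic cells were lower at 3 h over the same comparison, from a summed 271 to 325 CPM at rest to 24.4 to 37.6 CPM at 3 h in Cre-only cells, and the sum of the B cell markers went from between 18412 and 19202 to between 12202 and 12597 CPM. Sums of T cell markers (37.3 to 43.7 CPM at rest, 66.1 to 72.3 CPM at 3 h) and of 5 plasma cell markers (1502 to 1612 CPM, then 1777 to 1990.2 CPM) were higher at 3 h without overlap in the same cells. The part of such shifts in the members' values was not tested, and in bulk RNA fewer cells of a type and less RNA per cell cannot be told apart.

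The transcription factors come first. Atf4 (chr15:80085614-80087970, + strand, mm9), the central activator of the response, measured 316, 330.1 and 319 CPM in the 3 resting Cre-only libraries and 650.5, 711 and 684 CPM at 3 h. The groups lay well apart and each was tight. This was a log2 change of 1.08 ± 0.16 (SE) or 2.12-fold, with an edgeR adjusted p of 6.77e-05. In Runx1 c-k/o cells Atf4 went from 380.2, 456 and 363 CPM to 1045, 657 and 662 CPM, a log2 change of 0.98 ± 0.16 (edgeR adjusted p = 0.000158).

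Atf5 (chr7:52067627-52072028, - strand), a related bZIP factor whose mRNA is likewise controlled at translation and which responds to ATF4, started far lower. Its 3 resting Cre-only libraries held 2.36, 2.79 and 3.59 CPM and the 3-h libraries 17.3, 18.2 and 17.8 CPM. The 3-h values differed by less than 1 CPM among themselves. The rise was 6.13-fold (log2 2.62 ± 0.25, edgeR adjusted p = 1.41e-06). Runx1 c-k/o libraries moved from 2.40, 4.78 and 3.38 CPM to 27.5, 16.9 and 17.6 CPM, a log2 change of 2.56 ± 0.25 (edgeR adjusted p = 1.74e-06). Atf5 shares 82 exon bases (4.12% of its exon length) on the opposite strand with Il4i1, which was itself at 86.6 CPM at rest and 1402 CPM at 3 h in Cre-only cells, and with Nup62. The libraries were stranded but the strand setting of the counting is not given in the sources used here, and the share of Atf5 reads from this overlap was not tested.

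Ddit3 (chr10:126727830-126733344, + strand) encodes CHOP, a C/EBP-related factor best known for promoting apoptosis when ER stress is prolonged. It measured 55.1, 58.7 and 53.6 CPM in resting Cre-only cells and 108, 115 and 108 CPM at 3 h. The gap between the groups was many times the spread within either. The change was 1.98-fold (log2 0.99 ± 0.16, edgeR adjusted p = 9.15e-05). In Runx1 c-k/o cells values of 64.4, 69.8 and 55.6 CPM gave way to 162, 105 and 103 CPM, a log2 change of 0.96 ± 0.16 (edgeR adjusted p = 0.000118). Ddit3 overlaps the methionyl-tRNA synthetase gene Mars on the opposite strand by 68 exon bases (3.97%), and Mars rose from 58.5 to 260 CPM in Cre-only cells.

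The 3 members with the largest response are well-known ATF4 target genes, and they also share a sequence feature. The C/EBP-ATF response element, searched as TGATGNAA (N, any base) on both strands of the RefSeq promoters (GRCm38.p6, 250 bases before to 50 after the start), was found in the promoters of Chac1, Trib3 and Asns and in none of the promoters of the other 6 members. All 9 members had a RefSeq promoter, 10 promoters in all because Atf5 has 2. Of 32851 promoters of this length in the RefSeq set, 1304 (3.97%) hold the element. The 3 sites are shown in 30 bases each, read on the strand that carries the element, with the element in capitals.
Chac1, chr2:119351038-119351067, - strand: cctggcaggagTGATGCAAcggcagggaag
Trib3, chr2:152344028-152344057, + strand: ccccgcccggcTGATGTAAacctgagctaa
Asns, chr6:7693214-7693243, - strand: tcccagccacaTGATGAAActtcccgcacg
Counted from the transcription start, the first base of the element lies at -193 in Chac1, at 15 in Trib3 and at -23 in Asns. The element reads on the gene's own strand in Asns and on the opposite strand in Chac1 and Trib3. A match is a description of these letters only, and binding was not measured in these data. Elements outside the searched bases or with other letters were not looked for, so an absence holds for this search only. The 250 bases before the start of Chac1 and Asns, the gene with the highest rise and the gene whose element lies closest before its start, are given on the strand of each gene with the element in capitals, which reads in reverse complement in Chac1.
Chac1, chr2:119350992-119351241, + strand: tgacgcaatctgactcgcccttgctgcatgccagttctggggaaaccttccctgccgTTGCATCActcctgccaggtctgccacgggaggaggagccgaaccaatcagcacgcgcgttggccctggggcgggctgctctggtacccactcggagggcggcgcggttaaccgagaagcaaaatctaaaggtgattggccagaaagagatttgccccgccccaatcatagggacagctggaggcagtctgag
Asns, chr6:7693210-7693459, - strand: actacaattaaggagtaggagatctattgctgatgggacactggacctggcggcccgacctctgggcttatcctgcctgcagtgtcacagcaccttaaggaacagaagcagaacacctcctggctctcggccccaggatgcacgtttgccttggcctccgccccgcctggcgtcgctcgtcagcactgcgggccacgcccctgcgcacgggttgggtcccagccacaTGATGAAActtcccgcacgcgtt

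Chac1 (chr2:119176965-119180117 in mm9, + strand) encodes a gamma-glutamylcyclotransferase that breaks down glutathione. It was barely measurable in resting Cre-only cells, with 6, 1 and 4 reads or 0.289, 0.0569 and 0.248 CPM, close to the floor of 3 counts. At 3 h it measured 20.6, 24 and 22 CPM. The fitted change was 106-fold (log2 6.73 ± 0.76, 95% interval 5.23 to 8.22, edgeR adjusted p = 5.42e-06), and its size depends on the few resting reads. Runx1 c-k/o libraries held 0.234, 4.59 and 0.530 CPM at rest and 36.4, 31.3 and 26.3 CPM at 3 h. Replicate 2 thus held nearly all of the resting signal in this group, and the log2 change of 4.15 ± 0.56 became 6.37 without it.

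Trib3 (chr2:152163158-152169768, - strand) encodes a pseudokinase induced by ATF4 and CHOP that in turn restrains both. Resting Cre-only libraries held 0.722, 0.853 and 0.557 CPM, from 9 to 15 reads each, and 3-h libraries held 37.6, 44.4 and 45.3 CPM. No resting value came near a 3-h value. The rise was 58.7-fold (log2 5.88 ± 0.65, edgeR adjusted p = 4.49e-06). The values in the knockout were 0.936, 8.01 and 0.995 CPM at rest and 66.7, 42.2 and 45.6 CPM at 3 h, a log2 change of 3.97 ± 0.54 that became 5.74 without resting replicate 2.

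Asns (chr6:7625169-7643254, - strand) encodes asparagine synthetase, the enzyme that makes asparagine from aspartate and glutamine. Its Cre-only values were 4.00, 2.84 and 1.8 CPM at rest and 84.0, 73.1 and 47.0 CPM at 3 h. Asns was the member with the widest relative spread among 3-h Cre-only libraries, although the groups remained far apart. The change was 23.2-fold (log2 4.54 ± 0.50, edgeR adjusted p = 4.58e-06). Runx1 c-k/o cells went from 1.17, 5.88 and 0.796 CPM to 40.6, 34.6 and 27.0 CPM, a log2 change of 3.71 ± 0.51 that became 5.10 without resting replicate 2.

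Ddit4 and Sesn2 encode inhibitors of mTORC1, the kinase complex that drives growth. Sesn2 (chr4:132047947-132066416, - strand), a leucine sensor of the sestrin family, measured 20.6, 21.9 and 23.3 CPM in resting Cre-only cells and 73.8, 78.3 and 78.7 CPM at 3 h. The rise of 3.51-fold (log2 1.81 ± 0.13, edgeR adjusted p = 1.56e-07) had the smallest adjusted p among the members that rose. Sesn2 in the knockout went from 25.4, 34.1 and 23.0 CPM to 95.4, 79.2 and 87.4 CPM (log2 1.67 ± 0.13).

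Ddit4 (chr10:59412423-59414518, - strand), also known as REDD1, acts through the TSC complex and is induced by many stresses. It changed least on activation. Resting Cre-only libraries held 18.1, 28.0 and 24.5 CPM and 3-h libraries 28.9, 32.6 and 36.4 CPM. The groups did not overlap, but the highest resting value lay within 1 CPM of the lowest 3-h value. The log2 change of 0.47 ± 0.20 passed the threshold narrowly (edgeR adjusted p = 0.0480) and did not pass with DESeq2's size factors (adjusted p = 0.0924) or DESeq2's Wald test (0.0888), and it was -0.092 in DESeq2 with 1 RUVs factor. Left out singly, resting replicates 1 and 3 and 3-h replicates 2 and 3 each raised the edgeR adjusted p above the threshold, to 0.193, 0.0786, 0.0868 and 0.141. Ddit4 in the knockout measured 23.0, 39.2 and 25.1 CPM at rest and 58.3, 51.5 and 54.5 CPM at 3 h, a log2 change of 0.91 ± 0.20 (edgeR adjusted p = 0.00117).

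Ppp1r15a (chr7:52778286-52781638, - strand) encodes GADD34, which brings protein phosphatase 1 to eIF2 alpha and so reverses the signal that starts the response. It was the only member that fell. Resting Cre-only libraries held 702, 679.9 and 816 CPM, and 3-h libraries held 158, 168 and 166 CPM. The groups were far apart, with a 4.47-fold lower level at 3 h (log2 -2.16 ± 0.12, edgeR adjusted p = 2.52e-08). Runx1 c-k/o libraries fell from 709, 749.5 and 817 CPM to 247, 222 and 188 CPM (log2 -1.79 ± 0.12, edgeR adjusted p = 9.04e-08).

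**Figure D2:**
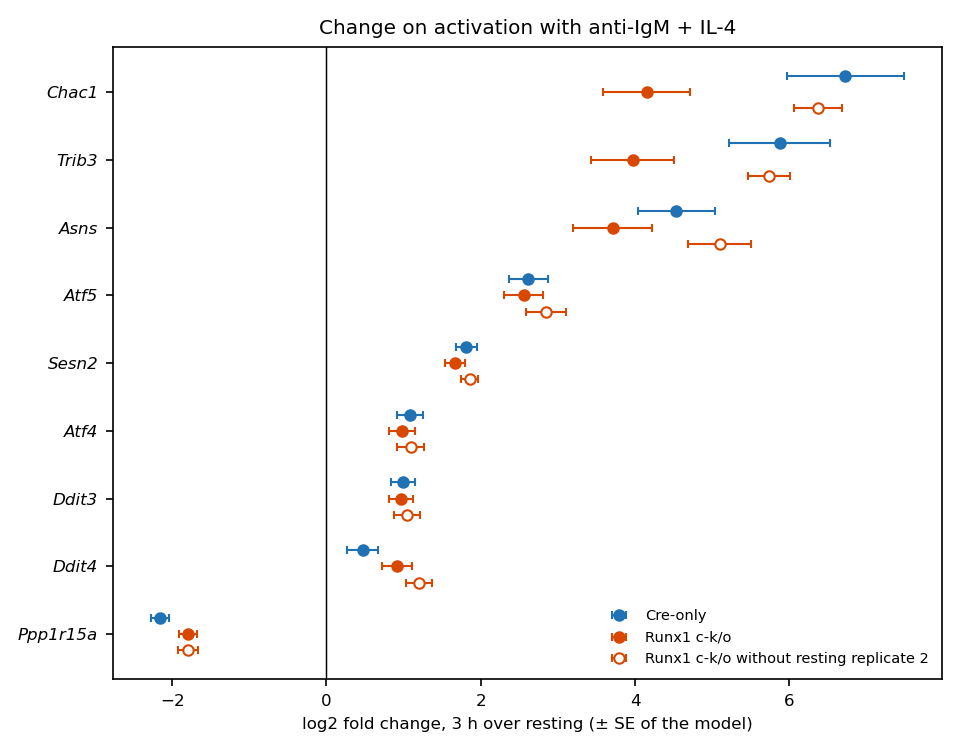
Log2 fold change of 3-h over resting cells for each member, with the standard error of the edgeR model, in Cre-only cells, in Runx1 c-k/o cells and in Runx1 c-k/o cells without resting replicate 2. Chac1, Trib3 and Asns changed most and were the members whose Runx1 c-k/o estimate moved most on leaving out that library, for Chac1 from 4.15 to 6.37.

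The same 8 members rose and Ppp1r15a fell after activation of Runx1 c-k/o cells, where 74.3% of all tested genes were called, 37.7% higher and 36.6% lower. Libraries of the 2 times again did not overlap for any of the 9, as was so for 36.5% (higher) and 36.3% (lower) of all genes. With 1 library left out, the log2 change was 0.71 to 1.11 for Atf4 and 2.29 to 2.85 for Atf5. It was 0.70 to 1.08 for Ddit3, 0.77 to 1.20 for Ddit4, 1.56 to 1.86 for Sesn2 and -1.90 to -1.69 for Ppp1r15a. With 1 RUVs factor DESeq2 called only Atf5, Sesn2 and Ppp1r15a in these cells and 57.3% of all genes, and edgeR called 6 members and 61.8% of all genes.

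Per kilobase of exon, which allows levels to be compared between genes, Ppp1r15a was the most abundant member in resting Cre-only cells at 249.5 ± 25 CPM per kb (SD, n = 3). Atf4 followed at 187 ± 4.30 and Ddit3 at 32.6 ± 1.53 CPM per kb, then Ddit4 and Sesn2, with Atf5, Asns, Trib3 and Chac1 between 1.46 and 0.121 CPM per kb. The ranges of Atf5 and Asns overlapped, and all other neighbors in this order were separate. At 3 h Atf4 led at 396 ± 17.7 CPM per kb, ahead of Ddit3 at 64.6 ± 2.31 and Ppp1r15a at 55.8 ± 1.83. Asns, Sesn2, Trib3 and Ddit4 followed between 24.9 and 19.4 CPM per kb with ranges that overlapped from one to the next, and Chac1 (13.5 ± 1.04) and Atf5 (8.91 ± 0.205) came last. The order in Runx1 c-k/o cells also ran from Ppp1r15a and Atf4 at rest, whose ranges overlapped there, to Atf4 in front at 3 h.

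The rest of the pathway is described by lists of genes chosen with earlier results of these data known. The counts below are out of the members of each list that were tested, and 75.1% of all genes were called in this comparison in Cre-only cells. Among the genes that ATF4 is known to activate in amino acid supply, nearly all rose. All 10 tested genes of amino acid synthesis and one-carbon metabolism rose, with a median log2 change of 3.08. Among these were Aldh18a1 (log2 3.10 ± 0.23) and Pycr1 (4.32 ± 0.37), which make proline, and Gpt2, a mitochondrial alanine aminotransferase (3.50 ± 0.27). Of 8 amino acid transporter genes 7 rose, with a median of 2.94. They included the cationic amino acid transporter Slc7a1 (3.19 ± 0.20), the glutamine transporter Slc1a5 (1.64 ± 0.12) and Slc7a5, the large neutral amino acid transporter (4.20 ± 0.37). The exception was Slc38a2, at 479 CPM at rest and 521 CPM at 3 h. All 13 aminoacyl-tRNA synthetase and tRNA export genes rose, with a median of 2.77, among them Iars (3.16 ± 0.20), Eprs (2.78 ± 0.18) and the tRNA exporter Xpot (2.54 ± 0.17).

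Genes upstream of ATF4 moved in both directions. Of 14 genes for eIF2, its exchange factor eIF2B and the eIF2 alpha kinases with their regulators, 10 rose and 2 fell. Eif2s1, which encodes eIF2 alpha itself, rose by 2.28 ± 0.17 on the log2 scale, Eif2s3x, which encodes eIF2 gamma, by 1.29 ± 0.10, and Gcn1l1, an activator of the kinase GCN2, by 1.31 ± 0.11. The 4 kinase genes differed among themselves. Eif2ak1, which encodes the heme-regulated kinase HRI, rose by 0.35 ± 0.073, and Eif2ak4, which encodes GCN2, changed by -0.21 ± 0.10 (edgeR adjusted p = 0.0802). Eif2ak3, which encodes the ER stress kinase PERK, fell by 1.54 on the log2 scale (SE 0.14), and Eif2ak2, which encodes the double-stranded RNA kinase PKR, fell by 1.06 (SE 0.31), a change that was 0.088 in edgeR with 1 RUVs factor.

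Among 11 tested partners of ATF4 and related bZIP factors, 7 rose and 2 fell. Cebpg, a dimer partner of ATF4, rose by 2.20 ± 0.16, Xbp1, a factor of a separate ER stress branch, by 1.96 ± 0.17, and Atf6b by 0.86 ± 0.10. Atf3, an early stress-inducible repressor, fell by 2.59 on the log2 scale (SE 0.18) and Cebpb fell by 1.22 (SE 0.38). Other targets of ATF4 and CHOP did not move together. Of 13 tested, 6 rose and 4 fell, with a median of 0.039. Ero1l, an oxidase of the ER (1.95 ± 0.12), Nars2, a mitochondrial asparaginyl-tRNA synthetase (1.52 ± 0.11), and Vegfa, an angiogenic growth factor (2.45 ± 0.25), rose. Tnfrsf10b, a death receptor, fell by 1.77 on the log2 scale (SE 0.20), Herpud1, an ER protein, fell by 0.53 (SE 0.11), and Gdf15, a secreted stress cytokine, went from 5.53 CPM to 0.108 CPM, under the floor of 3 counts. Of 18 genes of the ATF6 and XBP1 branches of the ER stress response 15 rose and 1, Dnajb9, a cochaperone of BiP, fell by 1.24 on the log2 scale (SE 0.11). The chaperone genes Hyou1 (2.03 ± 0.12) and Hspa5, which encodes BiP (1.21 ± 0.15), and the disulfide isomerase gene Pdia6 (1.46 ± 0.17) were among those that rose, and the median of this list was 0.94.

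**Figure D3:**
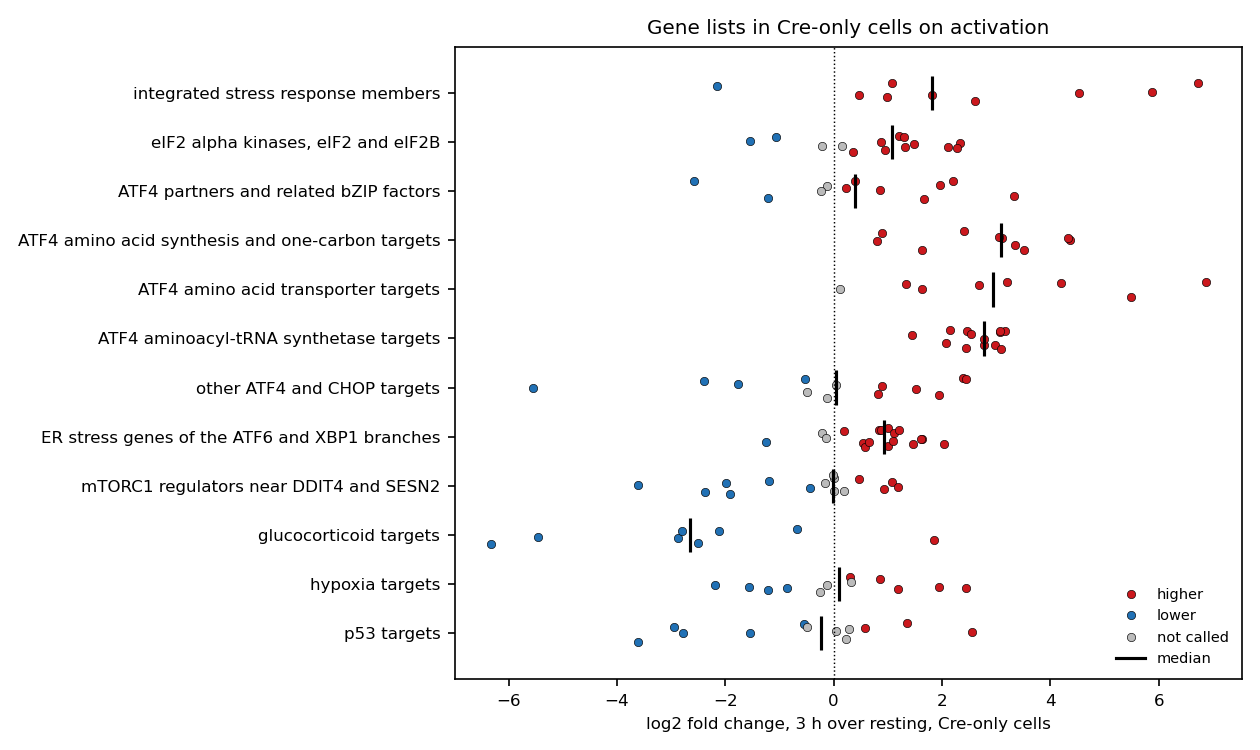
Log2 fold change of 3-h over resting Cre-only cells for every tested gene of the 9 members and of 11 related gene lists, 1 point per gene, with the median of each list as a line. Points are colored by whether the edgeR adjusted p was under 0.05 and by direction. The lists of amino acid synthesis, amino acid transport and tRNA charging lie to the right with medians of 3.08, 2.94 and 2.77, while the glucocorticoid list lies to the left at -2.65.

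At rest, no member differed between genotypes at an adjusted p under 0.05 in edgeR, where 1.49% of all tested genes were called. An unadjusted p under 0.05 was seen for 3 members, Chac1, Trib3 and Sesn2, and for 11.1% of all tested genes. For Sesn2 the groups overlapped, and the estimate of 0.33 (SE 0.13) ranged from 0.14 to 0.44 with 1 library left out. DESeq2's Wald test also called none of the 9 (2.79% of all genes), whereas DESeq2 with 1 RUVs factor called 1 of 9, Atf4 (4.45% of all genes). For 8 of the 9 members the estimate lay above 0, that is higher in Runx1 c-k/o cells, as it did for 55.6% of all tested genes, with a median of 0.31 against 0.031 over all genes. Without replicate 2 of the resting knockout cells 7 of the 9 estimates were above 0 and the median was 0.10, against -0.012 over all genes. The 3 Runx1 c-k/o libraries lay above all 3 Cre-only libraries for 2 members, Atf4 and Trib3, which 12% of all genes did. Chac1 (log2 3.08 ± 1.02, edgeR adjusted p = 0.233) and Trib3 (2.19 ± 0.77, edgeR adjusted p = 0.273) had the largest estimates, and both rested on replicate 2, without which they became 0.87 and 0.43. For Asns the estimate was -0.17 ± 0.58 with all libraries and -1.56 without that replicate, with edgeR adjusted p = 0.244. For Atf4 the difference was 0.31 (95% interval -0.0074 to 0.63, edgeR adjusted p = 0.531). When both libraries that stand apart were left out, Atf4 was 0.21 ± 0.057 higher and was the only member called (edgeR adjusted p = 0.0452), where 4.35% of all genes were called. The summed level of 6 erythroid and platelet markers was 249.7 to 414 CPM in resting Runx1 c-k/o and 41.7 to 258 CPM in resting Cre-only cells, and its part in these values was not tested.

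At 3 h again no member passed in edgeR, where 2.77% of all tested genes were called, and Ddit4, Ppp1r15a and Asns had an unadjusted p under 0.05, as did 16.2% of all tested genes. Ddit4 measured 28.9, 32.6 and 36.4 CPM in Cre-only and 58.3, 51.5 and 54.5 CPM in Runx1 c-k/o cells. All 3 Runx1 c-k/o values were well above the Cre-only values, by 1.68-fold (log2 0.75 ± 0.20, 95% interval 0.36 to 1.14, edgeR adjusted p = 0.0724). Ppp1r15a, which fell on activation in both genotypes, measured 158, 168 and 166 CPM in Cre-only and 247, 222 and 188 CPM in Runx1 c-k/o cells. Its level was 1.33-fold higher in the knockout, again without overlap (log2 0.42 ± 0.12, edgeR adjusted p = 0.0872). Both genes were called by DESeq2's Wald test, with an adjusted p of 0.00618 for Ddit4 and 0.0101 for Ppp1r15a, where 5.24% of all genes were called. Without both libraries that stand apart both were also called in edgeR (adjusted p = 0.0204 and 0.0400), where 6.65% of all genes were called. Leaving out single libraries gave edgeR adjusted p-values from 0.0796 to 0.271 for Ddit4 and from 0.0272 to 0.286 for Ppp1r15a, for which the lowest value, without replicate 3 of the knockout, was the only one under the threshold. With 1 RUVs factor DESeq2 called both genes (9.42% of all genes) and edgeR called Ppp1r15a (7.84%), and Ddit4 was called when only genes with 10 counts in every sample (3.24% called) or only the 3-h groups (1.29% called) entered the fit.

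Asns pointed the other way at 3 h, with 84.0, 73.1 and 47.0 CPM in Cre-only and 40.6, 34.6 and 27.0 CPM in Runx1 c-k/o cells. The highest Runx1 c-k/o value lay below the lowest Cre-only value. The level in the knockout was 2.0-fold lower, and the difference did not pass the threshold (log2 -1.0 ± 0.41, 95% interval -1.80 to -0.20, edgeR adjusted p = 0.259). Chac1 (0.50 ± 0.44) and Sesn2 (0.18 ± 0.13) also lay without overlap above Cre-only cells, which makes 4 members higher and 1 lower, where 9.49% and 12.3% of all genes were separated in these directions. For Atf4, Atf5 and Ddit3 the estimates of 0.21 ± 0.16, 0.22 ± 0.22 and 0.15 ± 0.15 rested on replicate 1 of the 3-h knockout cells and were -0.025, -0.020 and -0.069 without it. Trib3 differed by 0.28 ± 0.44, and by 0.074 without that replicate.

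**Figure D4:**
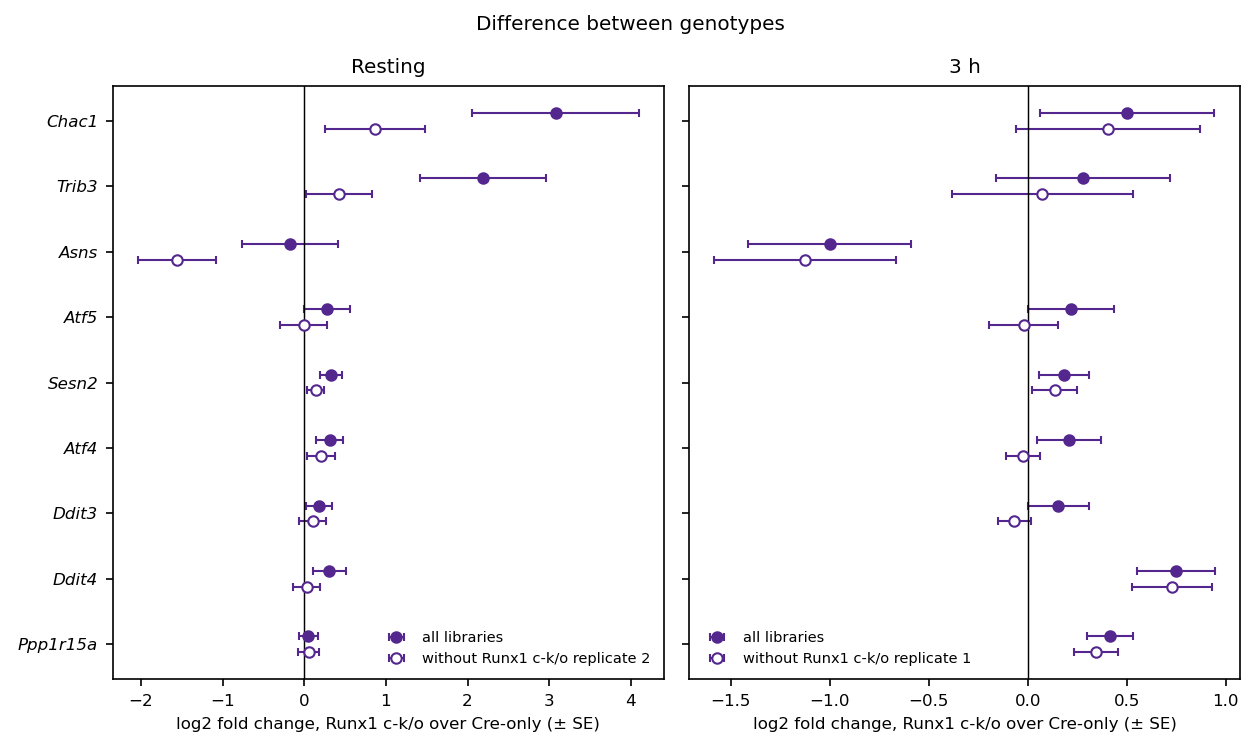
Log2 fold change of Runx1 c-k/o over Cre-only cells for each member at rest (left) and at 3 h (right), with standard errors of the edgeR model, for all libraries and without the Runx1 c-k/o library that stands apart at that time. The resting estimates of Chac1 and Trib3 fall from 3.08 and 2.19 to 0.87 and 0.43, and at 3 h Ddit4 (0.75), Ppp1r15a (0.42) and Asns (-1.0) lie farthest from 0 relative to their errors.

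The response to activation itself was compared between genotypes by the interaction. No member passed in edgeR, where 0.0813% of all tested genes were called, and 2 had an unadjusted p under 0.05, Chac1 (-2.58 ± 1.14, edgeR adjusted p = 0.956) and Ppp1r15a (0.37 ± 0.16, edgeR adjusted p = 0.964), beside 5.07% of all tested genes. DESeq2's Wald test called none of the 9 members and 0.613% of all genes. For Chac1 and Trib3 (-1.91 ± 0.90) the estimates shrank to -0.36 and -0.14 without resting Runx1 c-k/o replicate 2. The interaction for Ddit4 was 0.44 with a 95% interval of -0.11 to 0.99, and that for Atf4 -0.10 with an interval of -0.56 to 0.35.

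Calls between genotypes in the rest of the pathway are to be read against the 1.49% of all genes called at rest and the 2.77% called at 3 h, shares at which lists of this size would hold few or no calls. The 4 lists of amino acid synthesis, amino acid transport, tRNA charging and other ATF4 and CHOP targets held no called gene in either comparison of genotypes or in the interaction. All 13 tRNA charging genes had estimates above 0 at rest, beside 55.6% of all genes, with a median of 0.31. This rested on replicate 2 of the knockout, without which 6 of 13 were above 0, beside 47% of all genes, with a median of -0.012. At 3 h 10 of the 13 lay above 0, beside 51.0% of all genes, and 11 of 13 did without replicate 1 of the knockout. The median was 0.14 with that library and 0.056 without it. All 10 amino acid synthesis genes lay above 0 at 3 h with and without that library, with medians of 0.26 and 0.16. At rest all 10 did so with all libraries and 6 of 10 without replicate 2, with medians of 0.44 and 0.12. Of 8 transporter genes 6 lay above 0 at 3 h, with and without replicate 1. In the 3-h comparison Eif2ak2 was higher in Runx1 c-k/o cells by 1.32 ± 0.31 (edgeR adjusted p = 0.0404) and Atf3 by 0.86 ± 0.17 (edgeR adjusted p = 0.0175). Eif2ak2 measured 15.0, 11.7 and 24.3775 CPM in Cre-only and 24.3761, 49.0 and 54.4 CPM in Runx1 c-k/o cells. The groups thus overlapped narrowly, and the lowest knockout value came from replicate 1, which stands apart. Over all comparisons, 29 of 648 fits of genes named from the lists lost the call with 1 library left out. That count pools activation with the comparisons of genotypes, so it does not show how stable the genotype calls are. Over all genes, 202 were called at rest and 81 to 140 with 1 library left out. At 3 h 375 were called, and 180 to 617 with 1 library left out. At rest Pdia4, a disulfide isomerase of the ER, was higher by 0.42 ± 0.092 (edgeR adjusted p = 0.0464).

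RUNX motifs were looked for in the same promoters, as TGTGGT and TGCGGT on both strands. TGCGGT was found in Sesn2 (first base at -48) and Ppp1r15a (at -110), TGTGGT in none of the 10 promoters, and 22.4% of all 32851 promoters hold either.

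The genes with the most similar profiles over the 12 libraries were found as those with the smallest root mean square (RMS) difference from each member in log2 CPM centered on each gene's own mean. Atf4 was closest to Med28 (0.054) and Ppil3 (0.065), Ddit3 to Hnrnpc (0.056) and Sar1a (0.065), and Sesn2 to Ddx1 (0.072) and Gnl2 (0.074). Trib3 and Chac1 shared the same nearest non-member genes, Mreg and Pmepa1, with differences of 0.28 and 0.32 for Trib3 and 0.36 and 0.26 for Chac1. Atf5 was nearest to Alg3 (0.14) and Crls1 (0.15), Ppp1r15a to Unc119 (0.13) and Stoml1 (0.14), and Ddit4 to Tgfb1 (0.18) and Gm16046 (0.18). Asns was the member with the largest difference from its nearest non-member genes, Spsb1 (0.54) and Pogk (0.55).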

How the data were processed

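Stranded poly(A)-selected libraries were made by the authors from B cells purified by negative selection. Paired-end reads were aligned by the authors to mm9 using TopHat2 (2.0.11 per the submitters' processing notes) with an Ensembl gene set and summarised per gene by featureCounts. The deposited values are whole-number counts that were not normalized. The authors added ERCC spike-in RNA to each lysate, which was not used here. The strand setting and the handling of multiply aligned reads are not given in the sources used here. Positions were taken from a GENCODE annotation of mm9 and promoters from RefSeq.

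Genes were filtered with filterByExpr (minimum 10 counts) and fitted with edgeR 4.0.16 (TMM, robust quasi-likelihood F test, 1 term for each of the 4 groups, all 12 libraries) in R 4.3.3. Adjusted p-values are Benjamini-Hochberg values over all 13538 tested genes with a threshold of 0.05, SE are those of the fitted log2 change, and values after ± without SE are SD (n = 3). Profile likeness used log2(CPM + 0.5). The members, the gene lists and the tests were chosen with earlier results of these data known. Named from each list were up to 3 genes per direction with the smallest adjusted p, and other genes named were chosen after their values were seen. Of the B cell markers, 1 is not reported here and was left out of their sum.

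The authors' own test was DESeq2 with RUV factors, whose number and control genes are not stated, so DESeq2 1.42.0 and 1 RUVs factor (computed from replicate differences) served as alternatives, beside DESeq2's size factors in edgeR, no filter, 10 counts in every sample, only the groups compared, a replicate block and each library left out. Leaving out both libraries that stand apart was added after the data were seen. The fits were also run on simulated data in which few genes changed and no library stood apart. That run does not test them under the conditions of these data, where most genes change on activation. Replicates with the same number deviated together weakly in Cre-only cells (r of 0.309, 0.211 and 0.175 between resting and 3-h libraries). For unlike numbers r was -0.209 to -0.0106 there. In Runx1 c-k/o cells the same-number values were -0.324, -0.316 and 0.330. With 3 libraries a group this check does not settle whether libraries were paired, and the main fit holds no term for pairs.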

Additional observations from a re-analysis of the deposited data

How the results depend on the processing

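On activation in Cre-only cells 6 to 9 of the 9 members were called under every setting (8 or 9 with a library left out), the 6 where a minimum of 10 counts in every sample removed Trib3 and Chac1. In Runx1 c-k/o cells 3 were called by DESeq2 with 1 RUVs factor and 6 to 9 under the others. With that factor in DESeq2 Ddit4 changed by -0.092 in Cre-only cells, and with it in edgeR Eif2ak2 in Cre-only and Creb1 in Runx1 c-k/o cells changed by 0.088 and 0.056, against a fall without the factor. The factor follows time in part, with 0.141 to 0.740 in resting and -1.42 to -0.273 in 3-h libraries. Its part in these shifts was not tested. The replicate block left 9 members called in both activation comparisons, with 10036 and 9889 genes called, and 0 in the comparisons of genotypes and the interaction, with 140, 275 and 12 genes called. Libraries of the 2 genotypes with the same number correlated by -0.091 to 0.10 in their deviations and were not taken as pairs. A block within each genotype changed no member's call, and left 4 genes with an interaction.

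At rest 202 genes differed between genotypes, against 378 by DESeq2, 514 and 602 with an RUVs factor in edgeR and DESeq2, 598 without both libraries that stand apart, and 81 to 140 with 1 library left out. Of the members 1 was called by DESeq2 with the factor and 1 without both libraries. At 3 h 375 genes differed, against 709, 1061, 1275 and 914 under the same settings, 158 with only the groups compared, and 180 to 617 with 1 library left out. Of the members, 2 were called by DESeq2, with or without the factor, and without both libraries, and 1 with the factor in edgeR, with 10 counts in every sample and with only the groups compared, and 0 to 1 with 1 library left out. The interaction held 11 genes, against 83, 134, 251 and 187, and 4 to 31 with 1 library left out, and 0 members throughout.

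Among the members, signs in the comparisons of genotypes and in the interaction turned only for differences that were not called. Without both libraries these were Atf5 at rest (-0.0012), Atf4 (-0.025), Atf5 (-0.019) and Ddit3 (-0.069) at 3 h, and the interaction of Asns (0.43). The interaction of Ddit3 was 0.024 with DESeq2's size factors and with DESeq2 and 0.032 with 10 counts in every sample, and that of Atf5 0.0020 with 10 counts. With 1 library left out the resting differences ranged from -0.0083 to 0.50 for Atf5, -1.56 to 0.25 for Asns and -0.0065 to 0.13 for Ppp1r15a, and the 3-h differences from -0.025 to 0.32 for Atf4, -0.020 to 0.35 for Atf5 and -0.069 to 0.27 for Ddit3. The interactions ranged from -0.32 to 0.011 for Atf4, -0.28 to 0.23 for Atf5, -0.23 to 0.088 for Ddit3, -1.25 to 0.56 for Asns and -0.26 to 0.040 for Sesn2. With 3 libraries a group, resting levels of Chac1 and Trib3 rest on 1 to 15 reads per Cre-only library, which limits what their folds can show.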

Other observations

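Other inducers of Ddit4, Sesn2 and Ppp1r15a give a view of the pathways around them. Counts on activation in Cre-only cells are to be read against the 38.6% of all tested genes called higher and 36.4% called lower. Ddit4 is also a glucocorticoid target, and of 8 glucocorticoid target genes 7 fell and 1 rose on activation in Cre-only cells, with a median log2 change of -2.65. Sgk1, a kinase, fell by 2.51 on the log2 scale (SE 0.11), Tsc22d1 by 2.87 (SE 0.10) and Zfp36l2, an mRNA decay factor, by 2.80 (SE 0.15). Fkbp5, an immunophilin that buffers the glucocorticoid receptor, rose by 1.86 ± 0.14. At 3 h Tsc22d1 and Zfp36l2 were higher in Runx1 c-k/o cells, by 1.04 ± 0.10 and 0.78 ± 0.14 (edgeR adjusted p = 0.000163 and 0.0100), and Tsc22d1 alone of the genes on all 11 lists had an interaction that passed (1.24 ± 0.14). Hypoxia targets, another class to which Ddit4 belongs, were mixed on activation in Cre-only cells. Of 12 genes 5 rose, among them the glycolytic gene Pgk1 (1.19 ± 0.17), and 4 fell, among them Pdk1, a kinase that restrains pyruvate oxidation, by 1.22 on the log2 scale (SE 0.096), and the glucose transporter gene Slc2a1 by 0.86 (SE 0.092). Slc2a1 was higher in Runx1 c-k/o cells at 3 h (0.68 ± 0.092, edgeR adjusted p = 0.00160), and Egln3, an oxygen-sensing hydroxylase, was lower (-1.77 ± 0.27, edgeR adjusted p = 0.00303). Ndrg1 was lower in Runx1 c-k/o cells at rest (-0.79 ± 0.15, edgeR adjusted p = 0.0205).

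Sesn2 rose while the genes of its relatives Sesn1 and Sesn3 fell. In Cre-only cells Sesn1 went from 213 to 17.3 CPM (log2 -3.62 ± 0.21) and Sesn3 from 92.0 to 17.7 CPM (-2.38 ± 0.28), and the changes in the knockout were -3.43 ± 0.21 and -2.12. Of 15 tested regulators of mTORC1 4 rose and 6 fell in Cre-only cells, beside 38.6% and 36.4% of all tested genes. Those that rose included Mtor itself (1.19 ± 0.14), its partner Rptor (0.93 ± 0.10) and Mios, a subunit of the GATOR2 complex that Sesn2 binds (1.08 ± 0.090). Targets of p53, to which Sesn1 and Sesn2 belong, were also mixed in Cre-only cells, with 3 of 12 higher and 5 lower. Aen, a nuclease gene, rose by 2.56 ± 0.17 and Bax, a proapoptotic BCL2 family gene, by 1.35 ± 0.20, while Btg2, an antiproliferative gene, fell by 2.95 (SE 0.14) and Pmaip1, which encodes NOXA, fell by 2.78 (SE 0.14).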
